A study of Homo sapiens with 4 samples.

Results

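The G1/S cyclins, the retinoblastoma protein Rb, the CDK inhibitors p21 and p27 and the replication clamp PCNA were followed in LN229 cells treated with salmon calcitonin (sCT). Members were every antibody whose name matched Cyclin-D1, Cyclin-D3, Cyclin-E1, CDK2, Rb, E2F-1, p16INK4a, p21, p27 or PCNA, as total protein or as a phosphorylated site, and 11 of the 440 antibodies on the array did so. These were 8 total-protein antibodies and 3 antibodies to phosphorylated sites, for the products of 8 genes. The names CDK2 and p16INK4a matched no row and are not analysed here. A row named CDKN2A, the gene that encodes both p16INK4a and p14ARF, was not counted as a member because its name does not say which product it recognises. The cells are LN229, a glioblastoma line of human origin in long use, and sCT is a peptide hormone that binds the calcitonin receptor, which couples to adenylate cyclase. The data held 2 untreated LN229 samples, labelled as 0 min, and 2 LN229 samples given 300 nM sCT for 60 min. There was no untreated sample at 60 min, so sCT and elapsed time or handling cannot be told apart. The treatments are described as biological duplicates of the same line, with no further account of separate cultures, so p-values measure only the spread between these samples, which may be technical. Among the antibodies that would check the cell line's identity, Vimentin, CD44, Sox2 and EGFR are on the array, but levels of different antibodies are not on a common scale, so the label could not be tested with them.

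Passage from G1 into S phase is controlled by the Rb protein, which binds E2F transcription factors and keeps their target genes silent. D-type cyclins with CDK4 or CDK6, and then cyclin E with CDK2, phosphorylate Rb and release E2F, whose targets include the genes of cyclin E1, E2F1 itself and PCNA. The inhibitors p21 and p27 bind the cyclin-CDK complexes and hold them back. Loss of control at this point is among the most frequent changes in glioblastoma.

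Protein levels came from reverse phase protein arrays (RPPA), in which lysates are printed as dilution series and each slide is probed with 1 antibody. A level is a linear ratio on a relative scale that puts the median antibody of each sample at 1.0, and it compares samples for 1 antibody, not antibodies with each other. Changes are given as log2 fold changes, sCT minus untreated, with the standard error (SE) and an adjusted p from limma fitted over all 440 antibodies. How far a level stood above background is unknown, and the number of samples limits the precision.

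After 60 min of sCT, 10 of these 11 proteins and sites were past an adjusted p of 0.05 in limma, with 7 lower and 3 higher. Across the whole array 55.0% of antibodies passed, 33.6% as lower and 21.4% as higher, so a call in itself is common in these data. Total Rb and Rb phosphorylated at S807/S811 fell the furthest, p21 fell less, and cyclin D3 and the 3 p27 antibodies fell the least. PCNA, cyclin E1 and E2F1 rose, and cyclin D1 did not pass the test. The median of the 11 log2 fold changes was -0.16, with a range from -0.91 to 0.31, against a median of 0.016 over all antibodies. The 11 hold 3 antibodies to p27 and 2 to Rb, all of them called as lower. The counts and the median are therefore not over separate proteins, and the median is the value of the p27 T198 site. The untreated and sCT-treated samples did not overlap for 11 of the 11, and they did not overlap for 85.9% of all antibodies. With 1 sample left out, 5 members were called without untreated replicate 1, untreated replicate 2 or sCT replicate 1, where 48.6%, 42.5% and 33.6% of the array passed, and 4 without sCT replicate 2, where 35.9% passed. Rb, phosphorylated Rb, p21 and PCNA were called in all of these. Quantile normalization called 5 members and 49.5% of the array, relative loading control centring 8 and 49.3%, and the replicate block 7 and 54.1%. All 10 calls were kept on linear levels (57.3% of the array called), with a trend and robust estimation (59.3%) and without the lowest 10% of antibodies (51.3%). An unequal-variance test on linear levels called 0 of the 11 after adjustment, and 1 of all 440 antibodies (0.227%). At an unadjusted p of 0.05 it called 5 of the 11 and 155 of the 440 (35.2%).

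**Figure D1:**
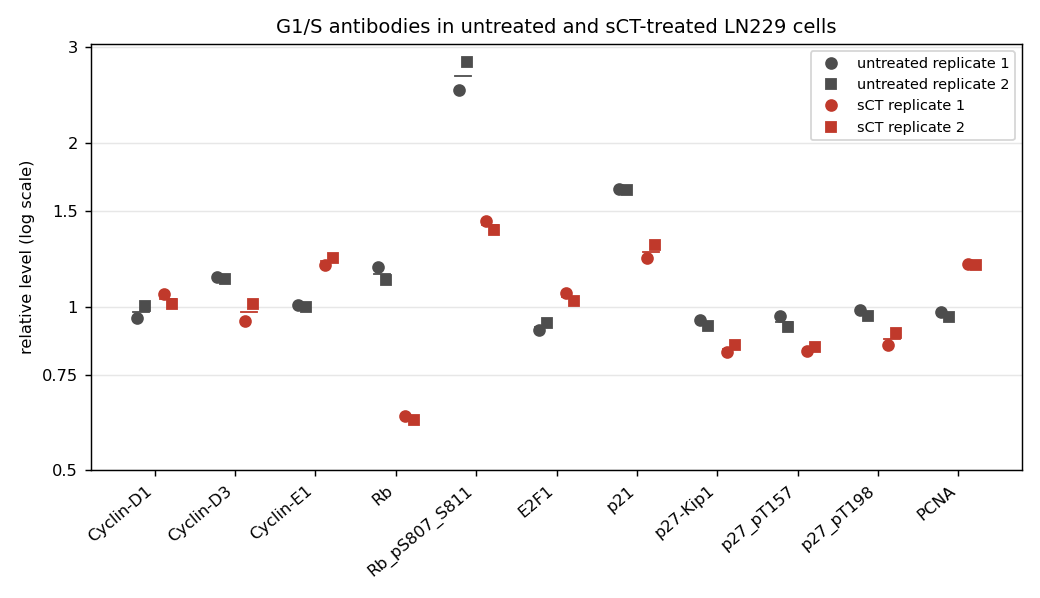
Relative level (log axis, linear ratio) of the 11 G1/S antibodies in each of the 2 untreated (grey) and 2 sCT-treated (red) samples, with circles for replicate 1, squares for replicate 2 and short lines at the group means. Rb and phosphorylated Rb show the widest gaps, with sCT-treated samples at 0.631 and 0.620 for Rb against 1.18 and 1.12 in untreated cells, while the cyclin D1 groups lie next to each other.

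Rb is the pocket protein that holds E2F, and S807 and S811 are among the sites that cyclin-CDK complexes phosphorylate to release it. Total Rb was 1.18 and 1.12 in the untreated samples and 0.631 and 0.620 after sCT. Both sCT-treated samples were far below both untreated ones, and the group means of 1.15 ± 0.0446 (SD, n = 2) and 0.625 ± 0.00760 (SD, n = 2) differed by -0.88 on the log2 scale (SE 0.050, adjusted p = 0.000294, limma). This corresponds to a level lower by 45.6%, with a 95% interval of the log2 change from -1.01 to -0.75.

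Rb phosphorylated at S807/S811 was 2.50 and 2.82 in the untreated samples and 1.44 and 1.38 after sCT. Again the groups lay well apart, although the untreated replicates differed from each other more than for any other member. The log2 fold change came to -0.91 (SE 0.073, adjusted p = 0.000702, limma). By size of change the phosphorylated and total form stood at rank 55 and 58 of the 440 antibodies, and both lay below the interquartile range of the array, which ran from -0.39 to 0.17.

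The fall of the site and the fall of the total protein were of nearly the same size. The difference of their log2 levels within a sample was 1.08 and 1.33 in untreated cells and 1.19 and 1.16 after sCT, so that both sCT-treated values lay between the untreated ones. The mean difference changed by -0.033, against an SD of 0.18 in untreated and 0.023 in sCT-treated cells (exact permutation test over samples, two-sided, p = 1, adjusted p = 1 over 4 such pairs). With 2 samples against 2, the smallest p this test can give is 0.333, so it could not detect a change of any size in phosphorylated relative to total Rb. Without untreated replicate 2 the change in this difference was 0.092, the opposite sign.

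The falls of both Rb antibodies kept their call with each replicate left out, at -0.92 to -0.84 for the total and -0.998 to -0.826 for the site. Quantile normalization gave smaller falls, of -0.63 (adjusted p = 0.00289, limma) for Rb and -0.80 (adjusted p = 0.00710, limma) for the site.

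Among the antibodies that are not members, those with the profile most like total Rb over the 4 samples were KAP1, DNMT1 and ULK1 phosphorylated at S757. Their Euclidean distances to Rb were 0.0703, 0.0816 and 0.103, on log2 levels taken relative to each antibody's mean. For phosphorylated Rb, Sox2 was nearest, at a distance of 0.0779. These distances describe 4 samples in 2 groups, so they mostly reflect a similar change between the groups.

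**Figure D2:**
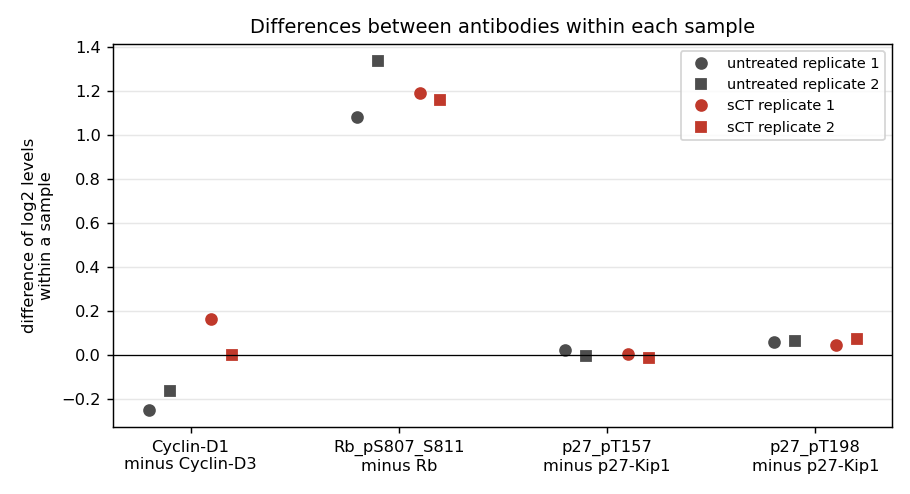
Difference of log2 levels between 2 antibodies in the same sample, for the 2 untreated (grey) and 2 sCT-treated (red) samples, with circles for replicate 1 and squares for replicate 2. The phosphorylated Rb minus total Rb values of sCT-treated cells, 1.19 and 1.16, lie between the untreated values, whereas the cyclin D1 minus cyclin D3 values do not overlap between groups.

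The 3 G1/S cyclins differed in direction. Cyclin D1, the D-type cyclin that growth factor signalling induces in many cells, was 0.953 and 1.001 in untreated cells and 1.05 and 1.01 after sCT. The groups did not overlap, but the higher untreated and the lower treated sample lay closer to each other than the replicates of either group did. The log2 fold change was 0.080 (SE 0.052, adjusted p = 0.230, limma), with a 95% interval from -0.057 to 0.22. Relative loading control centring, a scaling of the samples to 6 loading control antibodies, turned the sign to -0.051 (adjusted p = 0.557, limma).

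Cyclin D3, the other D-type cyclin measured, was 1.13 and 1.12 in untreated cells and 0.943 and 1.01 after sCT. Both treated samples were lower, with the first replicate further down than the second. The log2 fold change was -0.21 (SE 0.054, adjusted p = 0.0289, limma), a level lower by 13.4%. This call was lost with any 1 of the 4 samples left out, with adjusted p from 0.0503 to 0.132, while relative loading control centring gave a larger fall of -0.34 (adjusted p = 0.0115).

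The log2 difference of cyclin D1 and cyclin D3 within a sample was -0.25 and -0.17 in untreated cells and 0.16 and -0.0023 after sCT, a change of 0.29 with SDs of 0.060 and 0.12 (exact permutation test over samples, two-sided, p = 0.333, adjusted p = 1 over 4 pairs). That p is the smallest the design allows, so no change of any size could pass. The value does not depend on the centring of a sample, which both antibodies share, and it stayed between 0.21 and 0.37 with each replicate left out.

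Cyclin E1, the partner of CDK2 at the G1/S transition, was 1.007 and 1.0 in untreated cells and 1.19 and 1.23 after sCT. The replicates were close together and the groups clearly apart. The log2 fold change reached 0.27 (SE 0.044, adjusted p = 0.00674, limma), a level higher by 20.7%. The call was lost without sCT replicate 2 (0.25, adjusted p = 0.0512) and with relative loading control centring (0.14, adjusted p = 0.103). CD44 had the profile nearest to cyclin E1, at a distance of 0.0160.

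**Figure D3:**
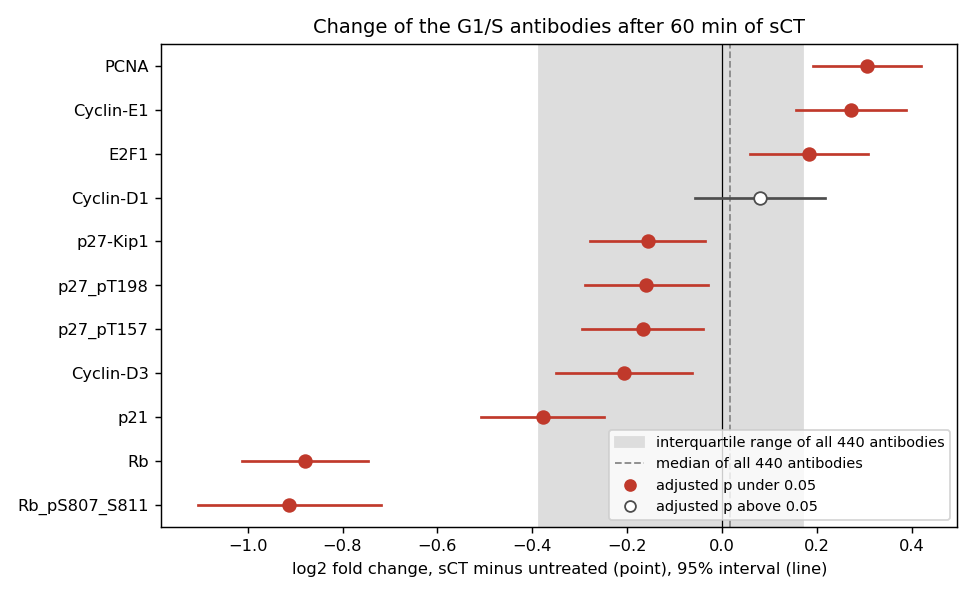
log2 fold change (sCT minus untreated) of the 11 G1/S antibodies with 95% intervals from limma, filled in red where the adjusted p was under 0.05. The grey band is the interquartile range of all 440 antibodies, -0.39 to 0.17, and only Rb, phosphorylated Rb, PCNA, cyclin E1 and E2F1 have estimates outside it.

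E2F1, an activating E2F factor, and PCNA, the ring that holds DNA polymerases on their template, rose together with cyclin E1. E2F1 was 0.906 and 0.931 in untreated cells and 1.06 and 1.02 after sCT. The treated samples were both higher by a modest margin, and the log2 fold change was 0.18 (SE 0.047, adjusted p = 0.0274, limma). The E2F1 call was lost with any 1 sample left out, with adjusted p from 0.0664 to 0.140, and under quantile normalization (0.28, adjusted p = 0.0552).

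PCNA was 0.978 and 0.956 in untreated cells and 1.20 and 1.19 after sCT. Its replicates were the tightest of the 11 antibodies, and its change of 0.31 on the log2 scale (SE 0.043, adjusted p = 0.00437, limma) was the largest rise among them. It corresponds to a level higher by 23.6%. Unlike E2F1, PCNA kept its call with each replicate left out, at 0.29 to 0.32 and adjusted p up to 0.0419.

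Cyclin E1 and PCNA had the closest profiles of any pair of members outside the 3 p27 antibodies, at a distance of 0.0490. Outside the members, PCNA was nearest to Cyclophilin-F and E2F1 to HER3 phosphorylated at Y1289. Next nearest to E2F1 was the loading control beta-actin, at a distance of 0.0177 and with a log2 fold change of 0.17.

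Of 6 loading control antibodies, 3 were also called as higher. Of the whole array, 21.4% was called as higher and 55.0% in either direction. GAPDH changed by 0.57, HSP70 by 0.41 and beta-actin by 0.17, while Porin, Vinculin and total Histone-H3 did not pass, at 0.082, 0.039 and -0.15. With each sample centred on these 6 antibodies, E2F1 was at 0.051 (adjusted p = 0.518), cyclin E1 at 0.14 and PCNA at 0.17 (adjusted p = 0.0429). Of the 3 rises, PCNA alone was still called under that centring. The part of protein loading in these rises was not tested.

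The promoters of E2F1 and PCNA are shown because theirs were the only member windows searched that held a match to an E2F motif. Both genes are known E2F targets, and they were picked with the rises of their products known. Whether E2F had a part in these rises was not tested. The 250 bases before the RefSeq transcription start on GRCh38.p14 are given 5′ to 3′ on the gene's strand, with motif matches in capitals. The motif was searched as TTTCCCGC, TTTCGCGC, TTTGCCGC and TTTGGCGC on both strands. E2F1 lies at chr20:33686386-33686635 and PCNA at chr20:5126623-5126872, both on the minus strand.
E2F1: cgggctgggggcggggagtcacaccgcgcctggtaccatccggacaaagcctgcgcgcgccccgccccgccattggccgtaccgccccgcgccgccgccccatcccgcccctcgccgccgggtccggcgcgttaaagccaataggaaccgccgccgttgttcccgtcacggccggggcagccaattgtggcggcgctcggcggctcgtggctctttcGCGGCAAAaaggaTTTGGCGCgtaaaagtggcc
PCNA: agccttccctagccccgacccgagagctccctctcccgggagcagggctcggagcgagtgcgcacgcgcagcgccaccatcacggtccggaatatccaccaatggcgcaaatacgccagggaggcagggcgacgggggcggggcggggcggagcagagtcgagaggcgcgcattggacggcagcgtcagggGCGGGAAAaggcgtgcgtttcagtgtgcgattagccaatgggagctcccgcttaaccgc

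The E2F1 window held 2 matches, one on each strand, and the PCNA window held 1, read on the opposite strand. Of all 35116 windows of this length in the RefSeq table, 2.79% held at least 1 match. Windows were found for 7 of the 8 member genes, 10 windows in all, of which 2 held a match, and the second PCNA start held none. CCND1 had no window. The window of RB1 belongs to a start 172699 bases inside the gene, so it does not show the main RB1 promoter. The start used for CDKN1A, the gene of p21, lay 2251 bases from the start of the gene. Those of CCND3 lay 1347 to 110830 bases from it. Cyclin E1, whose gene is also a known E2F target, had a window without these letters, which says only that they are not in it. A match is a description of the sequence, and the array measured protein, not transcription.

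The CDK inhibitors were all lower. For p21, the inhibitor that p53 induces, the levels were 1.65 and 1.64 in untreated cells and 1.23 and 1.30 after sCT. The treated samples were both clearly lower, by -0.38 on the log2 scale (SE 0.049, adjusted p = 0.00332, limma), which is a level lower by 23.1%. It kept its call with each replicate left out, at -0.42 to -0.34. Quantile normalization gave -0.16 (adjusted p = 0.117), so the size of this fall depended on the scaling. The nearest profile outside the members was that of MITF, at a distance of 0.0268.

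The p27 protein was measured with 3 antibodies, one to the total and 2 to sites, T157 and T198, that AKT and related kinases phosphorylate and that bear on where p27 sits in the cell. Total p27 was 0.947 and 0.920 in untreated cells and 0.826 and 0.849 after sCT. The T157 site was 0.961 and 0.916 in untreated cells and 0.829 and 0.842 after sCT. The T198 site was 0.987 and 0.960 in untreated cells and 0.851 and 0.893 after sCT. All 3 were lower in both treated samples by a similar, small amount.

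The log2 fold changes were -0.16 for total p27 (adjusted p = 0.0408, limma), -0.17 for T157 (adjusted p = 0.0388) and -0.16 for T198 (adjusted p = 0.0483). These are the 3 calls nearest to the threshold among the 11, and each was lost with any 1 sample left out, with adjusted p between 0.0567 and 0.202. Each was also lost under quantile normalization, where the changes were -0.027, -0.048 and -0.097. Relative loading control centring made all 3 larger, at -0.29, -0.30 and -0.29, and kept the calls.

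Within a sample, the T157 site minus total p27 changed by -0.011 and the T198 site minus total by -0.0030 on the log2 scale. The exact permutation test over samples (two-sided, p = 0.667 and p = 1, adjusted p = 1 for both) could not have called a change of any size here either. The 3 antibodies had the closest profiles of all member pairs, with distances from 0.0211 to 0.0402.

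The row named CDKN2A, kept apart from the members, went from 1.05 and 1.01 to 1.12 and 1.25. Whether LN229 cells hold either product of this gene, and so what this signal stands for, was not tested. Its log2 fold change was 0.20 (SE 0.068, adjusted p = 0.0598, limma), and the treated replicates differed from each other by more than the gap between the nearest samples of the 2 groups.

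**Figure D4:**
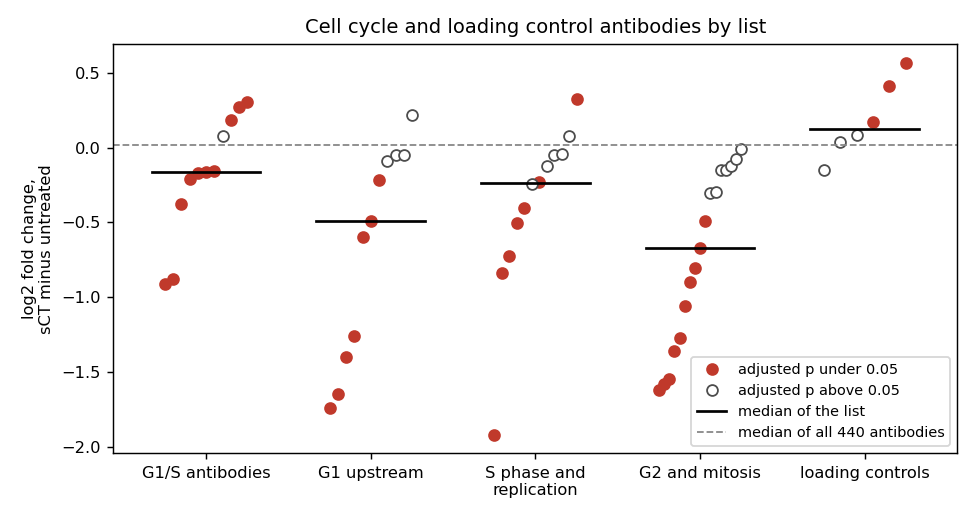
log2 fold change (sCT minus untreated) of each antibody in 5 lists, filled in red where the adjusted p was under 0.05, with a bar at each list's median and a dashed line at the median of all 440 antibodies. The G1/S antibodies span -0.91 to 0.31, with a median of -0.16, and the G2 and mitosis list lies lower, with a median of -0.67. The G1/S list holds 3 antibodies to p27 and 2 to Rb, so its median is not over separate proteins.

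Other cell cycle proteins on the array were taken from 3 lists. Of 11 antibodies to regulators upstream of the G1/S step, 7 were called and all 7 were lower, with a median log2 fold change of -0.49. FOXO3, a factor that drives transcription of p27, had the largest change of this list, -1.74 (adjusted p = 0.000141). GSK3 kinases mark cyclin D1 for degradation and are held inactive by phosphorylation at S21 of the alpha and S9 of the beta form, and the antibody to these sites gave -1.65, while total GSK-3B gave -0.59. Both beta-catenin, a coactivator of cyclin D1 transcription, at -0.49, and c-Jun phosphorylated at S73, another activator of that gene, at -1.26, were lower. MDM2 phosphorylated at S166, the ligase that degrades p53, was at -1.40 and FoxO3a phosphorylated at S318/S321 at -0.22, and both were called. The levels of c-Myc and p53 did not pass the test, with changes of -0.087 (adjusted p = 0.139) and -0.050 (adjusted p = 0.396). The same holds for total GSK-3a-b at 0.22 and b-Catenin phosphorylated at T41/S45 at -0.047.

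Of 12 antibodies to proteins of S phase entry and DNA replication or to proteins that act with them, 7 were called, 6 lower and 1 higher, with a median of -0.23. The licensing factors CDT1, which loads the replicative helicase, and Cdc6, which acts with it, changed by -0.23 (adjusted p = 0.0127) and -0.50 (adjusted p = 0.00378). RRM2, the regulated subunit of ribonucleotide reductase, changed by -0.41 (adjusted p = 0.00630), whereas its partner RRM1 was at 0.080 (adjusted p = 0.172). PCNA rose while DNMT1, a methyltransferase that PCNA recruits to replicating DNA, fell, with a change of -0.84, as did MSH6, a mismatch repair protein that also binds PCNA, at -1.92. RPA32, which coats single-stranded DNA, was the 1 antibody of this list called as higher, at 0.32 (adjusted p = 0.0468).

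Of 17 antibodies to G2 and mitosis proteins, 10 were called and all 10 were lower. FOXM1, a factor that drives mitotic genes, was at -1.55, the mitotic kinase Aurora-A at -1.36 and cdc25C, a phosphatase that activates CDK1, at -0.90. Chk1 and Wee1, kinases that restrain entry into mitosis, were at -1.58 and -1.62, and Histone-H3 phosphorylated at S10, a mark of condensed chromosomes, was at -1.27. Also called were Aurora-B at -0.81, PLK1 at -0.67, Chk2 phosphorylated at T68 at -1.06 and Chk1 phosphorylated at S345 at -0.49. The list's median was -0.67. The other 7 antibodies did not pass. Cyclin-B1, the mitotic cyclin, was at -0.31 (adjusted p = 0.0720). The inhibitory sites of CDK1 were at -0.15 for T14 and -0.12 for Y15. Wee1 phosphorylated at S642 was at -0.0055 and Chk1 phosphorylated at S296 at -0.076, Chk2 was at -0.15, and the antibody to phosphorylated Aurora kinases was at -0.30. The cyclins of both transitions therefore gave 1 call lower (cyclin D3), 1 higher (cyclin E1) and 2 that did not pass (cyclin D1 and cyclin B1). The share called in either direction was 63.6%, 58.3% and 58.8% in the 3 lists, near the 55.0% of the whole array. Called as lower were 7 of 11, 6 of 12 and 10 of 17, where 33.6% of the array was called as lower. The lists were chosen with earlier results of these data known, so these counts are a description only.

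**Figure D5:**
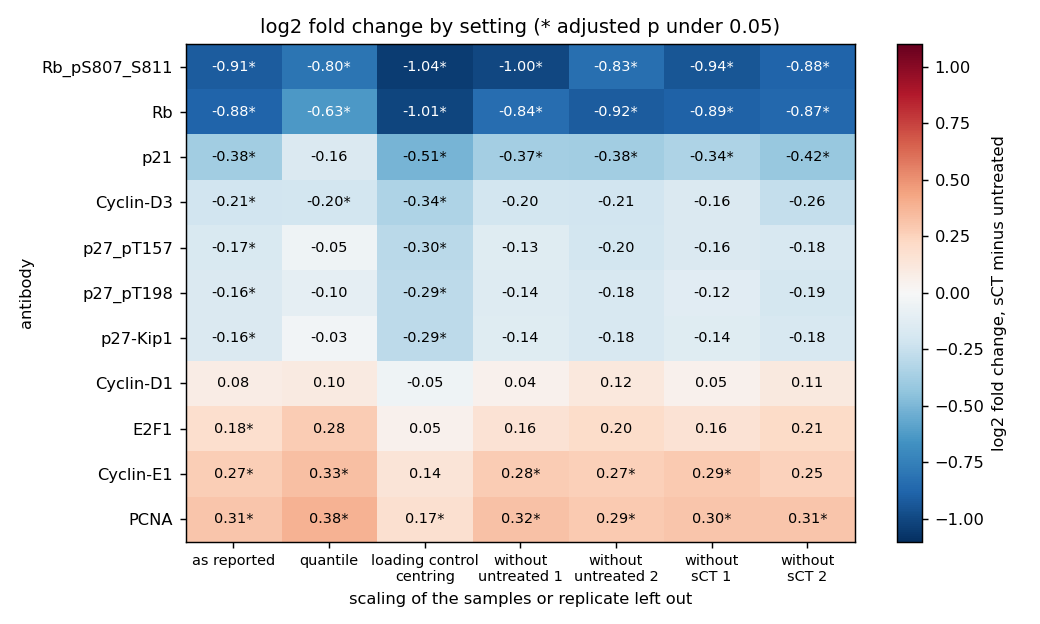
log2 fold change (sCT minus untreated) of the 11 G1/S antibodies as reported, under quantile normalization, under relative loading control centring and with each sample left out, with an asterisk where the adjusted p was under 0.05. Rb and phosphorylated Rb are between -1.04 and -0.63 and called in all 7 columns, as PCNA is at 0.17 to 0.38, while the p27 antibodies and E2F1 lose their calls in 5 or more columns.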

How the data were processed

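RPPA levels of LN229 cells were used, 2 untreated and 2 sCT-treated samples, grouped by the sample titles. According to the methods, the authors printed serially diluted lysates on nitrocellulose slides, probed them with antibodies, detected them with DAB and quantified the spots. The deposited values are linear ratios, 1 per antibody and sample, with a median of 1.0 in each sample. The steps from spot intensity to ratio are not given in the sources used here.

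The ratios were transformed to log2 without a pseudocount and without a filter. The sCT-treated and untreated groups were set against each other in limma 3.58.1 under R 4.3.3 (lmFit, eBayes, no covariates, two-sided, 2 residual and 2.59 prior degrees of freedom), with Benjamini-Hochberg adjustment over all 440 antibodies and a threshold of 0.05. Differences between antibodies within a sample were compared with an exact permutation test. All 11 members are named, with other antibodies from fixed lists and the 3 nearest profiles per member, of which some are given. The members and lists were chosen with earlier results of these data known. The limma steps were tested on simulated data. The alternatives were linear levels, median centring, quantile normalization, relative loading control centring, an unequal-variance test, a robust eBayes with a trend, a filter that removed the 10% of antibodies lowest in mean level, the omission of each replicate, and the replicate number as a block.

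In relative loading control centring, each sample was centred on the median of 6 loading control antibodies (GAPDH, beta-actin, HSP70, Vinculin, Porin and Histone-H3), after subtraction of each antibody's mean log2 level. Promoter windows came from RefSeq on GRCh38.p14. Protein sequences were not used here.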

Additional observations from a re-analysis of the deposited data

How the results depend on the processing

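The number of members called was 10, and it was 10 on linear levels, with median centring, with trend and robust estimation and without the lowest 10% of antibodies. Median centring (55.0% of the array called) could change almost nothing, because each sample already had a median of 1.0. The number of members called was 8 with relative loading control centring (49.3% of the array called, against 55.0%) and 5 with quantile normalization (49.5%). With each replicate left out it was 4 to 5 (33.6% to 48.6%), and each omission leaves fewer degrees of freedom. The member count was lowest without sCT replicate 2 (35.9% of the array), and the array share was lowest without sCT replicate 1 (33.6%). The unequal-variance test on linear levels called 0 after adjustment (1 of all 440 antibodies) and 5 at an unadjusted p of 0.05 (155 of 440), against 10 in limma. With it, the linear differences were -0.151 for cyclin D3, 0.207 for cyclin E1, -0.525 for Rb, -1.25 for phosphorylated Rb, 0.124 for E2F1, -0.378 for p21, -0.0960, -0.103 and -0.102 for total p27, T157 and T198, and 0.228 for PCNA. Relative loading control centring moved the array by -0.13 log2 units, reversed cyclin D1 (-0.051) and took the calls of cyclin E1 (0.14) and E2F1 (0.051). Quantile normalization took those of E2F1 (0.28), p21 (-0.16), total p27 (-0.027), T157 (-0.048) and T198 (-0.097), and the cause was not tested. With each replicate left out, the log2 fold change was between -0.26 and -0.16 for cyclin D3, 0.25 and 0.29 for cyclin E1, 0.16 and 0.21 for E2F1, -0.18 and -0.14 for total p27, -0.20 and -0.13 for T157, and -0.19 and -0.12 for T198. The within-sample changes then ran from -0.16 to 0.092 for phosphorylated minus total Rb, -0.025 to 0.0030 for T157 minus total p27, and -0.018 to 0.012 for T198 minus total p27. The replicate numbers are shared by the groups, but the labels do not say that they pair the samples. The replicate differences of the groups correlated across antibodies with r = 0.586. With the replicate block, 7 members were called (54.1% of the array) and the p27 calls were lost (-0.16, -0.17 and -0.16). Signal over background is unknown, which limits all levels.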
